A study of Mus musculus with 4 samples.

Results

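The MHC class I genes and their loading machinery were described in 4 total RNA libraries of splenic T cells: 7 heavy chain genes (H2-K1, H2-D1, H2-Q4, H2-Q6, H2-Q7, H2-T22 and H2-T23), the light chain gene B2m, the peptide transporter subunit Tap1 and the class I transactivator Nlrc5. The 10 genes were taken by symbol, from a list made with earlier results of these data known. All 10 were found among the 55536 mouse genes of the tables. The cells came from the spleen of male B6CASTF1/J mice aged 66 days, an F1 cross with the mother from C57BL/6 and the father from CAST/EiJ. The labels add CD3, a surface complex that marks T cells, and name no treatment. The only group holds 4 biological replicates (libraries 1 to 4 below), each made from 300 ng of RNA with spike-in RNAs. All 4 carry 1 shared donor identifier, and the labels do not say outright that each is a separate animal, so SDs and p-values concern the spread between these samples, which may be technical. The reads were quantified on the reference annotation, and the alleles of the parents were not separated.

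Class I molecules present peptides from inside the cell to CD8 T cells on nearly every nucleated cell. A heavy chain folds with beta-2 microglobulin in the endoplasmic reticulum, where a complex around the transporter TAP supplies peptides cut by the proteasome, and an unloaded molecule is unstable. The classical heavy chains vary greatly between strains, the Q and T region genes beside them encode non-classical molecules that are less variable, and in T cells Nlrc5 is known for driving transcription of the whole set.

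Total estimated counts were 14584388 to 17335895 per library. The libraries were checked for other cells by marker genes. All 10 T cell markers had a mean of at least 10 TPM (transcript abundance per effective length, scaled to a fixed total), and their sum was between 2824 and 2942 TPM in the 4 libraries. Library 4 stood apart: its 10 B cell markers summed to 159 TPM against 14.6 to 19.9 TPM in the others, its 6 MHC class II genes to 292 against 53.8 to 73.4 TPM, and its 6 erythroid genes to 633 against 15.3 to 62.5 TPM. In library 2 the 6 neutrophil markers summed to 29.7 TPM against 9.45 to 10.5 TPM. The 6 natural killer markers summed to 26.1 TPM in library 4 against 18.8 to 20.2 TPM in the others, and the 6 dendritic markers to 4.87 against 1.99 to 3.66 TPM. The 6 monocyte markers summed to between 22.7 and 26.4 TPM in the 4 libraries. No listed marker was at 0 in all 4 libraries. In bulk RNA, fewer cells of a type and less RNA per cell cannot be told apart.

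The 7 heavy chain genes lie on chromosome 17 and are copies of one another, which is the setting for every value below. Their leading full coding sequences, of 978 to 1086 bases, were aligned. H2-K1 and H2-D1 were identical at 91.5% of aligned bases, H2-Q6 and H2-Q7 at 95.4%, the closest pair, and H2-K1 and H2-T22 at 67.8%, the most distant of the 21 pairs. The stretch below is the window of 90 coding bases with the most variable columns, 57 of 90. It runs across the junction of the exons for the alpha-1 and alpha-2 domains, which form the peptide groove (exons 2 and 3 of H2-K1), and starts at coding base 247 in H2-K1. It was picked over all 7 genes together, not pair by pair, and other stretches differ between the genes too. It is shown as an example of such differences, and capitals mark bases that differ from H2-K1.
H2-K1: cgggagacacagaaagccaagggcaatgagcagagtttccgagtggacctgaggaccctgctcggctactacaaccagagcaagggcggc
H2-D1: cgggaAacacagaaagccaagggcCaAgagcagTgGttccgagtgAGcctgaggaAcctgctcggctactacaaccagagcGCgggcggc
H2-Q4: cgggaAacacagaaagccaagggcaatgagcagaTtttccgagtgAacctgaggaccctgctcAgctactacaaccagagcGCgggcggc
H2-Q6: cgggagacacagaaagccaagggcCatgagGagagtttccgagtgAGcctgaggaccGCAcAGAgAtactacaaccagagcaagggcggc
H2-Q7: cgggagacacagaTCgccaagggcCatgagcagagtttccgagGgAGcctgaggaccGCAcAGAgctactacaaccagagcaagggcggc
H2-T22: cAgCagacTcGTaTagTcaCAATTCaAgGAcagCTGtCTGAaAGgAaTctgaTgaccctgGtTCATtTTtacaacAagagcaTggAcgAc
H2-T23: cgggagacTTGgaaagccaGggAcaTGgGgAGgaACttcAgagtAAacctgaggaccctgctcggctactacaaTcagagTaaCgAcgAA
In this window H2-D1 differed from H2-K1 at 10 bases, H2-Q4 at 6, H2-Q6 at 11, H2-Q7 at 12, H2-T23 at 21 and H2-T22 at 39. H2-Q6 and H2-Q7 differed from each other at 5 bases.

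Shared sequence was counted over whole genes. Of the distinct 31-base windows in its transcripts, H2-K1 had 77.2% that occur in no other gene's transcripts, H2-T23 75.5%, H2-D1 73.3%, H2-Q4 61.6%, H2-Q7 60.9%, H2-Q6 49.7% and H2-T22 49.0%. The main partner of H2-T22 was H2-T10, which held 47.2% of its windows. The main partners of H2-Q6 were H2-Q4, with 24.6%, and H2-Q7, with 18.4%. B2m and Nlrc5 had 100% of such windows to themselves and Tap1 99.2%. At 100 bases, the private share was 88.0% to 99.0% in the 7 heavy chains.

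H2-K1 (ENSMUSG00000061232.16, chromosome 17 from 33996017 to 34000347, minus strand, mm10), a classical heavy chain, was the most abundant of the 10 genes, at 1819, 1916, 1785 and 1706 TPM in libraries 1 to 4 (1806 ± 86.8 TPM, SD, n = 4). Over all transcripts it ranked 11 among protein-coding genes. Over coding transcripts alone H2-K1 was below B2m and H2-D1, as given further on. H2-D1 (ENSMUSG00000073411.11, chromosome 17 from 35262730 to 35267499, plus strand), the other classical heavy chain listed, stood at 917, 994, 920 and 867 TPM (924 ± 52.1 TPM). Both genes were highest in library 2 and lowest in library 4, and their ranges did not overlap. The log2 ratio of H2-K1 to H2-D1, each as TPM + 1, was 0.97 ± 0.019 (1.95-fold, n = 4), positive in 4 of 4 libraries. Over coding transcripts alone its sign was the opposite, as given further on. Estimated counts of the same quantification, which are not divided by length, were close, at means of 20989 for H2-K1 and 20638 for H2-D1. In library 4 H2-D1 had more counts, 17734 against 17624. With 4 libraries the exact two-sided sign-flip permutation test has 16 sign patterns, of which 2 are as extreme as a ratio that is positive or negative throughout. Its smallest p is therefore 0.13, the value it gave here and for each of the 6 ratios tested, and Benjamini-Hochberg adjustment over the 6 leaves it as it is.

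The light chain gene B2m (ENSMUSG00000060802.8, chromosome 2 from 122147686 to 122153083, plus strand), which pairs with every class I heavy chain, had 845, 878, 855 and 833 TPM (853 ± 19.1 TPM). It varied least in relative terms among the 3 most abundant of the 10 genes, and it was below H2-D1 within each of the 4 libraries although their ranges over libraries overlapped. Its log2 ratio to the sum of H2-K1 and H2-D1 was -1.68 ± 0.043 (n = 4), so that its transcript level was 0.313 of that sum and lower in 4 of 4 libraries (exact sign-flip p = 0.13).

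Of the Q region heavy chains, H2-Q4 (ENSMUSG00000035929.11, chromosome 17 from 35379617 to 35385290, plus strand) had 184, 202, 190 and 178 TPM (189 ± 10.2 TPM). H2-Q7 (ENSMUSG00000060550.16, 35439155 to 35443773, plus strand), which encodes a heavy chain of the non-classical molecule Qa-2, had 186, 203, 184 and 178 TPM (188 ± 10.5 TPM). The 2 genes could not be ordered: their ranges overlapped nearly whole, and H2-Q4 was above H2-Q7 in 1 of 4 libraries. H2-Q6 (ENSMUSG00000073409.12, 35424850 to 35430055, plus strand) had 56.2, 71.4, 73.5 and 66.6 TPM (66.9 ± 7.73 TPM), with library 1 lowest. Its coefficient of variation over libraries, 11.6%, was the highest of the 10 genes. The log2 ratio of H2-Q7 to H2-Q6 was 1.48 ± 0.167 (2.79-fold), positive in 4 of 4 libraries (exact sign-flip p = 0.13), and its sign too depended on the transcripts and the quantification used.

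Of the T region heavy chains, H2-T23 (ENSMUSG00000067212.8, 36029773 to 36032855, minus strand), which encodes Qa-1, a ligand of inhibitory receptors on natural killer and T cells, had 110, 115, 107 and 109 TPM (110 ± 3.12 TPM). H2-T22 (ENSMUSG00000056116.18, 36037128 to 36042747, minus strand), a ligand of some gamma-delta T cell receptors, had 69.5, 74.4, 70.6 and 71.2 TPM (71.4 ± 2.11 TPM). These 2 ranges did not overlap, and the log2 ratio was 0.62 ± 0.027 (1.54-fold, 4 of 4 libraries, exact sign-flip p = 0.13). The 2 classical genes together exceeded the sum of the 5 non-classical ones by a log2 ratio of 2.13 ± 0.035 (4.36-fold, 4 of 4 libraries, same test and p).

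Tap1 (ENSMUSG00000037321.17, 34187553 to 34197225, plus strand), a subunit of the peptide transporter, had 61.0, 68.1, 63.2 and 67.3 TPM (64.9 ± 3.35 TPM), the lowest mean of the 10. Its range overlapped that of H2-Q6. Tap2, its partner subunit, had 56.7, 55.2, 55.5 and 56.6 TPM (56.0 ± 0.758 TPM), and the log2 ratio of Tap1 to Tap2 was 0.21 ± 0.083 (4 of 4 libraries, exact sign-flip p = 0.13). Nlrc5 (ENSMUSG00000074151.13, chromosome 8 from 94434356 to 94527272, plus strand), the transactivator, had 134, 145, 146 and 152 TPM (144 ± 7.46 TPM), between H2-Q7 and H2-T23. In TPM, library 1 was lowest and library 4 highest in Nlrc5, where library 4 was the lowest of the 4 in H2-K1, H2-D1, B2m, H2-Q4 and H2-Q7. On the log2 CPM scale this held only in part. Those 5 genes were again lowest in library 4, and Nlrc5 in library 1, at -0.02. The highest library of Nlrc5 was library 2, at 0.04 above its mean, as for those 5 genes, and library 4 was at -0.01.

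**Figure D1:**
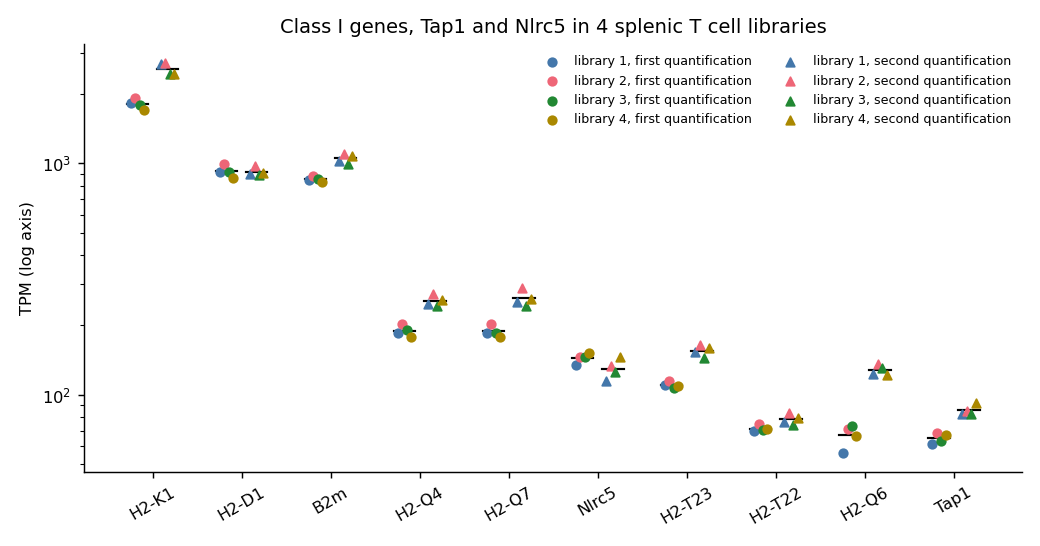
Levels of the 10 genes in TPM (log axis), 1 point per library, with circles for the first and triangles for the second deposited quantification and a line at each mean. H2-K1 stands apart at the top in both, and H2-D1 and Nlrc5 are the genes whose second value is not above the first on average.

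Summed, the 10 genes had 4382, 4666, 4396 and 4229 TPM and took 0.515% ± 0.022 of mouse gene counts (n = 4). Without library 4 their mean sum was 4481 TPM, against 4418 TPM with it. Library 2 was highest in 8 of 10 genes. On the log2 CPM scale (counts scaled to library size after TMM), the members' median deviation from their own means was 0.03, 0.10, -0.01 and -0.08 in libraries 1 to 4. Over the 1345 genes at least as abundant as the least abundant of the 10, the same medians lay between -0.02 and 0.02. Library 2 was also the deepest and library 4 the shallowest, and the B cell, class II and erythroid sums above were highest in library 4. The part of depth or of other cells in this spread was not tested.

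No member was called variable between the libraries. Over all genes, edgeR's goodness-of-fit test with Benjamini-Hochberg adjustment called 183 of 13118 genes tested at an adjusted p under 0.05, or 1.40%, and 0 of 10 lies near that share. Unadjusted, 603 genes had a p under 0.05. The smallest unadjusted p among the members was 0.137, for H2-Q7, and every member's adjusted p was 1 by this edgeR test. The alternative with DESeq2's dispersion trend also called 0 of 10. The members' median SD of log2 CPM was 0.082, against 0.121 over all genes tested and 0.057 over the 1345 genes of like or higher abundance.

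**Figure D2:**
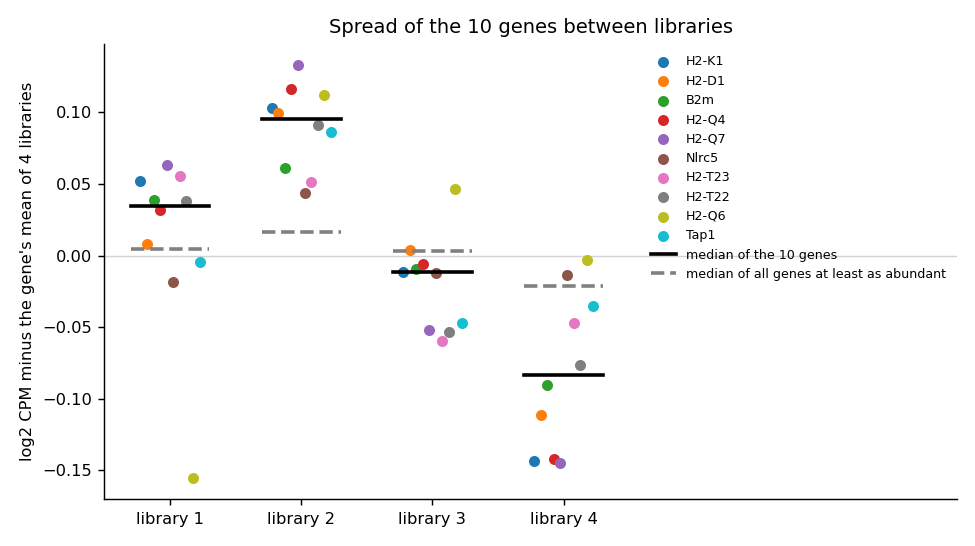
Deviation of each gene's log2 CPM from its own mean over the 4 libraries, with the median of the 10 genes (black) and of all genes at least as abundant (grey, dashed). The black line is at 0.10 in library 2 and -0.08 in library 4, the grey line at 0.02 and -0.02, and H2-Q6 departs from the others in library 1.

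The heavy chain genes also share letters upstream of their starts, and these are shown because Nlrc5, interferon factors and NF-kappaB are known to act through such promoters. RefSeq promoters (GRCm38.p6, the build mm10) were found for 9 of the 10 genes, without Nlrc5. Each line below gives the bases from 200 to 6 before the RefSeq start, for the 7 genes in which no annotated exon of the gene reaches into the window. Capitals mark matches on either strand to TTTCACTT (an interferon response core), GGGANTNCC (kappaB-like), TGATGAC (a CRE-like box) and CCAAT (which reads ATTGG on the other strand), where the match is whole within the line. The motifs were picked with the results known, and their matches do not overlap here.
H2-K1 (chr17:34000353-34000547, minus strand): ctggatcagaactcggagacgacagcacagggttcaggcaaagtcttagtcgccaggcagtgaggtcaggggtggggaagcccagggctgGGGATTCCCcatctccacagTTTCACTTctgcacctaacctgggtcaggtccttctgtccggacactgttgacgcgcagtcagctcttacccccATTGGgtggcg
H2-Q4 (chr17:35379417-35379611, plus strand): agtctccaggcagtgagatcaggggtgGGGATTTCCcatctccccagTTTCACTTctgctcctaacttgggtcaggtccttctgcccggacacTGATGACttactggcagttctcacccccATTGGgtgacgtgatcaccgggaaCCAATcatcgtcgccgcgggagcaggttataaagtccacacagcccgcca
H2-Q6 (chr17:35424650-35424844, plus strand): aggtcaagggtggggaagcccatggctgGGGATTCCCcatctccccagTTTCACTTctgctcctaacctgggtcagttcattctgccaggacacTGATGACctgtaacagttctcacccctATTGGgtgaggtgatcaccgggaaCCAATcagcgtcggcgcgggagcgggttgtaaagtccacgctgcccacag
H2-Q7 (chr17:35438955-35439149, plus strand): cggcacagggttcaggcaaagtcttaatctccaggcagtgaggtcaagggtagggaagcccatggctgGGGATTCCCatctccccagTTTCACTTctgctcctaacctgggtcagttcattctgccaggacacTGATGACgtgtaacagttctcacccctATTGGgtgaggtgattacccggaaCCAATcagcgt
H2-T22 (chr17:36042748-36042942, minus strand): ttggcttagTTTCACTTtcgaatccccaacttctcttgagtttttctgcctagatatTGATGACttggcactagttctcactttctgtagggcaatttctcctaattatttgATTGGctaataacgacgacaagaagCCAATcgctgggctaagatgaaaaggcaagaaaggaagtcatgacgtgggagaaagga
B2m (chr2:122147487-122147681, plus strand): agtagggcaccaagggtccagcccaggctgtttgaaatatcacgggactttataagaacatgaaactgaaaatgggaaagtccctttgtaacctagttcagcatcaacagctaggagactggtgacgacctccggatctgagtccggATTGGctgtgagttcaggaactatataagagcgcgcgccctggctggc
Tap1 (chr17:34187356-34187550, plus strand): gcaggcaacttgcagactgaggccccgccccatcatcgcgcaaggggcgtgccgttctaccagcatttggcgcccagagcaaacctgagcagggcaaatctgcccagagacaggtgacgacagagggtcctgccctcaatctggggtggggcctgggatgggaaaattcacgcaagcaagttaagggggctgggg
Over the whole windows of 300 bases, TTTCACTT occurred in 6 of 9 members and in 1.60% of 32851 RefSeq promoters, GGGANTNCC in 5 of 9 and 3.95%, TGATGAC in 5 of 9 and 3.23%, and CCAAT in 9 of 9 and 37.4%. All 4 motifs were in H2-D1, H2-Q4, H2-Q6 and H2-Q7. H2-K1 held 3 of 4, without TGATGAC, and H2-T22 held 3 of 4, without GGGANTNCC. B2m, Tap1 and H2-T23 held CCAAT alone of these letters, and no match says only that these letters are not in this window. The copies share ancestry, so matches in neighbours are not independent.

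Which transcripts carried each gene's TPM differed widely between the members. Transcripts annotated as retained intron, models with no coding frame that keep intron sequence, held 69.4% ± 0.519 of the TPM of H2-K1 and protein-coding transcripts 24.6% ± 0.793 (n = 4). The background was 4176 protein-coding genes that have a retained-intron model and a mean of at least 10 TPM. Their median retained-intron share was 27.5%, and H2-K1 stood at percentile 96.1 among them. H2-Q7 had 58.3% ± 3.10 in retained-intron models, percentile 91.0. H2-D1 had 37.0% ± 1.33, H2-Q4 30.7% ± 1.47, Tap1 30.5% ± 3.49, Nlrc5 29.2% ± 1.39, H2-T23 16.9% ± 2.70 and H2-T22 8.46% ± 0.992. B2m and H2-Q6 have no such model. In Tap2 the share was 88.1% ± 6.37.

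A single short model led the TPM of H2-K1. H2-K1-215, of 457 bases, took 782, 815, 756 and 782 TPM in libraries 1 to 4, or 43.4% of the gene's TPM. The full coding transcript H2-K1-205, of 1570 bases, had 240, 263, 257 and 246 TPM, or 13.9%. Within the 457 bases, 437 lie in exons of coding H2-K1 transcripts and 20 in the intron before exon 7 of H2-K1-205. The first exon of H2-K1-215 is shown whole, with these 20 intron bases in capitals and exon 7 in lower case.
H2-K1-215 (chr17:33996616-33996674, minus strand, mm10): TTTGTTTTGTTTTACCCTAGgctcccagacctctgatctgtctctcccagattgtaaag
Because TPM divides by length, the short model weighed more in TPM than in reads: it held 21.9% of the gene's estimated counts, and the deposited effective length of H2-K1 averaged 709 bases against 1364 bases for H2-D1. In the second quantification H2-K1-215 held 25.2% of the gene's TPM and 8.50% of its counts.

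Other members rested on other models. In H2-D1, the coding transcript H2-D1-202 held 55.7% of TPM and the retained-intron model H2-D1-204, of 716 bases, 37.0%. H2-D1-204 held 16.7% of the gene's counts, and in the second quantification 19.7% of TPM against 69.6% for H2-D1-202. In H2-Q7, the retained-intron model H2-Q7-206, of 4209 bases, held 53.5% of TPM and 79.0% of counts. In Nlrc5, coding transcripts held 33.6% ± 0.261 of TPM, 79.9% of counts and, in the second quantification, 52.0% ± 1.64 of TPM. Its longest coding transcript, Nlrc5-207, of 7578 bases and 53 exons, had 29.5 TPM, below the processed transcript Nlrc5-208, of 557 bases, at 33.2 TPM. In counts Nlrc5-207 held 57.9% and Nlrc5-208 3.97%, and in the second quantification Nlrc5-207 was the higher in TPM, at 48.1 against 10.2 TPM. In H2-Q6 the minor coding transcript H2-Q6-201 was at 1.04, 5.29, 11.9 and 0 TPM in libraries 1 to 4, with library 3 highest and library 4 at 0. The second quantification put it at 50.1, 36.6, 48.0 and 20.9 TPM, with library 1 highest.

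**Figure D3:**
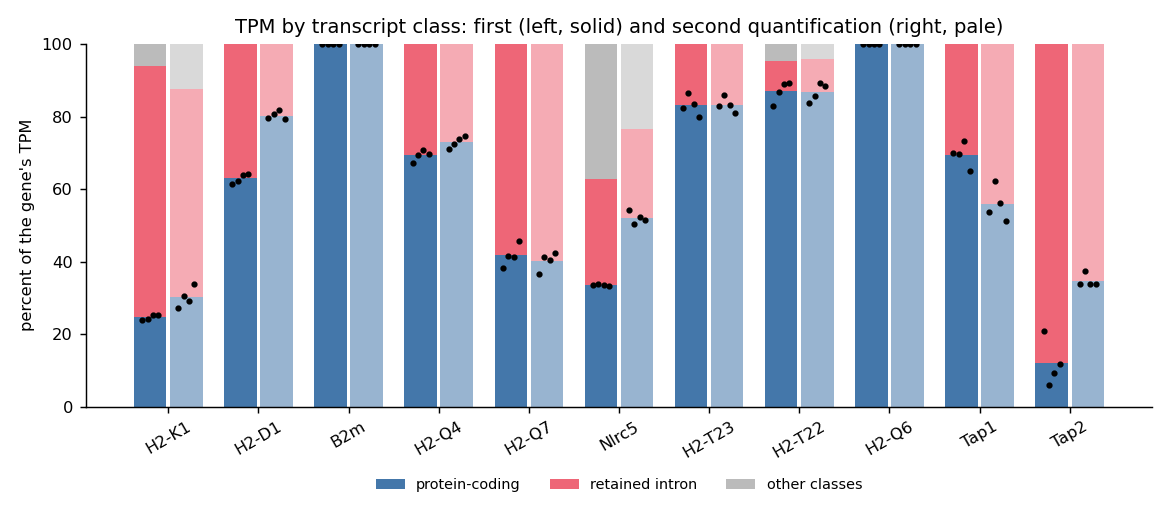
Percent of each gene's TPM in protein-coding, retained-intron and other transcripts, as means of 4 libraries for the first (left, solid) and second quantification (right, pale), with points for the coding share in each library. Coding transcripts hold 24.6% of H2-K1, 41.7% of H2-Q7 and all of B2m and H2-Q6 in the first quantification.

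Counting coding transcripts alone, an alternative chosen after seeing the data, changed the order of the classical genes. The coding transcripts of H2-K1 had 433, 461, 451 and 432 TPM (444 ± 14.0 TPM) and those of H2-D1 563, 619, 589 and 556 TPM (582 ± 28.5 TPM). H2-D1 was then the higher gene in every library, and the log2 ratio of H2-K1 to H2-D1 was -0.39 ± 0.026 (0.765-fold, positive in 0 of 4 libraries, exact sign-flip p = 0.13). B2m, all of whose TPM is coding, stayed at 853 ± 19.1 TPM and was then above both classical genes in every library. It reached 0.832 of the summed classical coding transcripts, at a log2 ratio of -0.27 ± 0.029. In the second quantification B2m was again above both in every library, at a mean of 1048 TPM. The coding transcripts of H2-K1 averaged 770 TPM there and those of H2-D1 734 TPM. The log2 ratio of classical to non-classical coding transcripts was 1.25 ± 0.042, that of H2-Q7 to H2-Q6 0.23 ± 0.122, that of H2-T23 to H2-T22 0.56 ± 0.093 and that of Tap1 to Tap2 2.69 ± 0.722, each positive in 4 of 4 libraries. Over coding transcripts of the second quantification, H2-K1 to H2-D1 was at 0.07 ± 0.099, positive in 3 of 4 libraries, and H2-Q7 to H2-Q6 at -0.29 ± 0.146, positive in 0 of 4. There Tap1 to Tap2 was at 0.87 ± 0.148, or 1.82-fold against 6.45-fold in the first, positive in 4 of 4.

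The second deposited quantification gave higher values for most genes. Over 15361 genes with a mean of at least 1 TPM in either table, the median log2 ratio of second to first (TPM + 1) was 0.37. The fold rule was applied to the ratio itself, with this shift left in. Single genes are also read against the shift further on. No member was past 2-fold in the same direction in 4 of 4 libraries, where 8.57% of all genes compared were past it upward and 2.34% downward. At 1.5-fold the only member past it was H2-Q6, upward, where 17.6% of all genes were past it upward and 2.81% downward. The members' median was 0.41.

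H2-Q6 went furthest up. Its second values were 123, 135, 130 and 121 TPM (128 ± 6.47 TPM), 1.90-fold the first and 0.55 above the all-gene median shift on the log2 scale. Library 1 was no longer lowest, and the minor transcript H2-Q6-201 held 30.4% of TPM there against 6.34% in the first. H2-K1 had 2673, 2698, 2437 and 2428 TPM (2559 ± 146 TPM), 1.42-fold the first and 0.13 above the shift. H2-Q4, H2-Q7, H2-T23 and Tap1 were 1.35-, 1.39-, 1.40- and 1.32-fold the first, 0.02 to 0.11 above the shift on the log2 scale.

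H2-D1 went the other way against the shift. Its second values were 894, 970, 888 and 905 TPM (914 ± 37.5 TPM), 0.99-fold the first and -0.39 relative to the all-gene median. Nlrc5 had 115, 133, 126 and 145 TPM (130 ± 12.6 TPM), lower than the first in 4 of 4 libraries and -0.53 relative to the median shift. B2m, with 1019, 1100, 997 and 1078 TPM (1048 ± 48.5 TPM), and H2-T22, with 76.4, 83.4, 74.2 and 79.2 TPM, were at -0.08 and -0.24. The order of neighbours changed with it. In 4 of 4 libraries of the second quantification B2m was above H2-D1 and H2-T23 above Nlrc5, each the reverse of the first in all 4, and H2-Q6 was above H2-T22, which it exceeded in 1 of 4 libraries in the first.

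**Figure D4:**
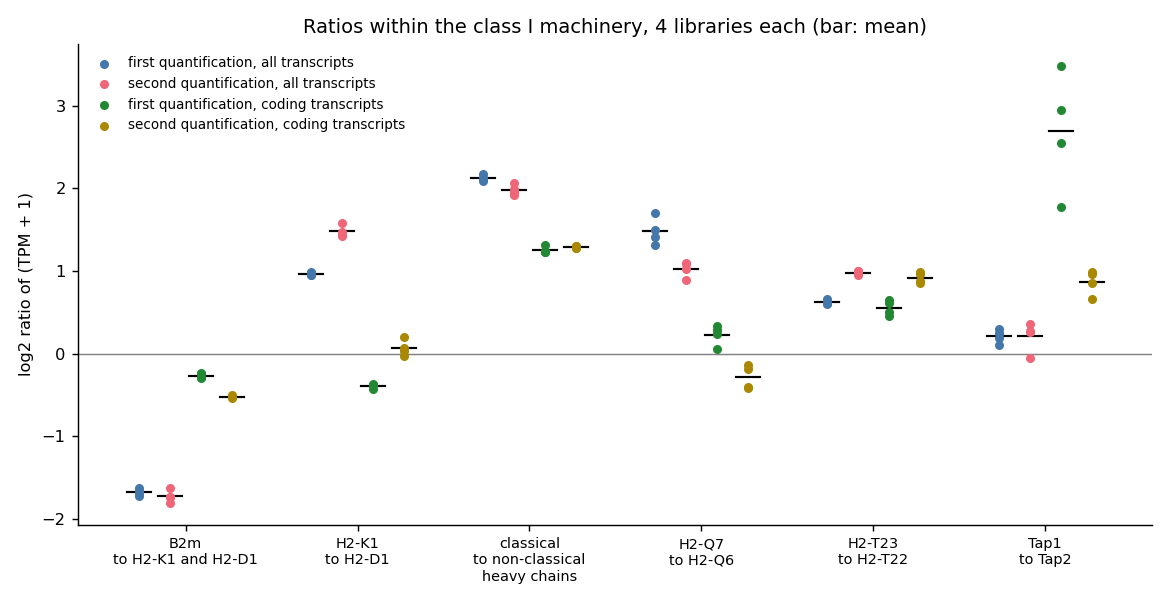
Log2 ratios of TPM + 1 for 6 pairs or sums of genes, 1 point per library and a bar at the mean, under 2 quantifications and over all or coding transcripts. The ratio of H2-K1 to H2-D1 is 0.97 and 1.48 over all transcripts of the first and second quantification, and -0.39 and 0.07 over coding transcripts.

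The files' own measure of assignment error was small. The posterior SD of the gene count was at most 0.91% of the count in any member and library, in H2-Q6, and 0 for B2m and Nlrc5. In H2-Q6 it reached 18.4 counts, against 42.6 to 49.0 counts for the square root of the count, and in H2-K1 10.2 counts against 133 to 155. The mean estimated count of H2-Q6 was 2090 in the first and 2979 in the second quantification, further apart than either of these errors. The posterior SD rests on the reference annotation, and how reads of the CAST/EiJ alleles were placed was not tested.

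Relatives of these genes were measured beside them. Of 25 other class I and class I-like symbols, 23 had an identifier, 14 had a mean of at least 1 TPM and 8 at least 10. H2-Q5, annotated as a polymorphic pseudogene, had 131, 175, 153 and 145 TPM (151 ± 18.1 TPM), and it shares 43.2% of its 31-base windows with H2-Q7. H2-T10 had 37.3 to 40.5 TPM over the libraries, H2-Q10, a secreted heavy chain known from liver, 31.9 ± 3.00 TPM, Gm11127 31.1 ± 1.63 TPM and H2-K2, annotated as a pseudogene, 23.5 ± 1.63 TPM. H2-M3, which presents formylated peptides, had 12.1 ± 0.644 TPM, Cd1d1, which presents lipids, 12.1 ± 1.84 TPM and Fcgrt, the neonatal Fc receptor, 11.1 ± 0.642 TPM. H2-T24, H2-Bl, Gm7030, H2-Q1, Mr1 and H2-Q2 lay between 4.83 and 9.91 TPM. H2-M9, H2-M10.1 and H2-M11 had 0 counts in the first quantification in all 4 libraries, where 3 counts, the level that a count of 0 allows, would be 0.174 to 0.206 CPM.

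The quantifications also parted for some of these relatives. Of 17 with a mean of at least 1 TPM in either table, 4 were past 2-fold upward in 4 of 4 libraries, beside 8.57% of all genes: H2-Q10 (106 TPM in the second), H2-K2 (80.7 TPM), H2-Q2 (22.8 TPM) and Gm8909 (25.5 TPM against 0.488 TPM in the first). Gm8909 was chosen for mention after its values were seen. H2-Q5 was at 280.0 TPM in the second, 1.85-fold the first. Among the genes that share most sequence there was no single order: H2-Q6 and H2-T22 had 49.7% and 49.0% of private windows, and were 1.90- and 1.09-fold the first.

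**Figure D5:**
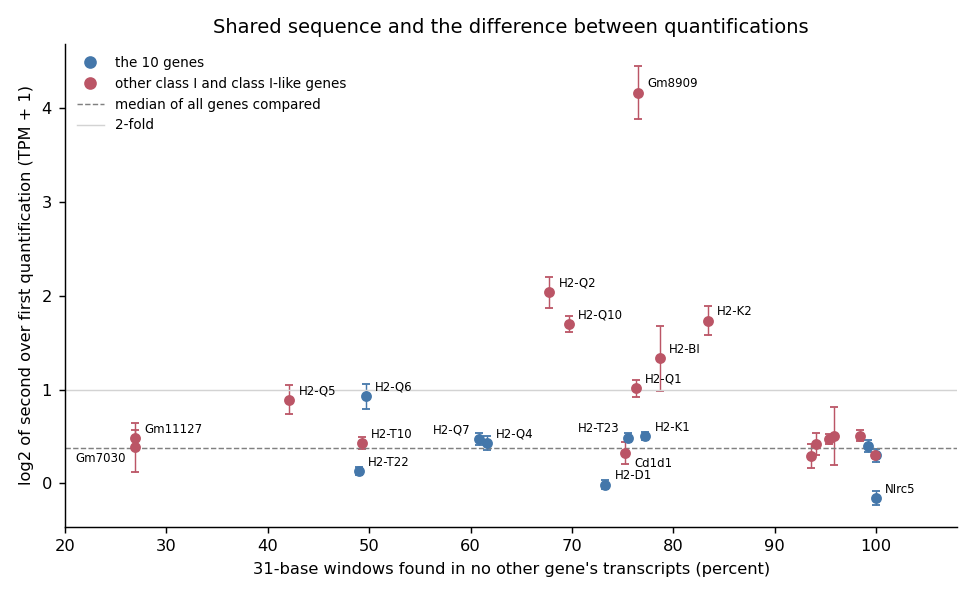
Percent of 31-base windows found in no other gene's transcripts against the log2 ratio of second to first quantification (mean and SD of 4 libraries) for the 10 genes (blue) and other class I or class I-like genes (red); genes over 90% are unlabelled except Nlrc5. H2-Q6 and H2-T22 lie at nearly the same share and at 0.93 and 0.13.

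Further genes of the loading pathway were read from a list of 14. All 14 listed genes had a mean of at least 10 TPM. Of the 14, 0 were called variable by edgeR's goodness-of-fit test, beside 1.40% of all genes tested. The chaperones and editors of the loading complex were led by Calr, calreticulin, at 154 ± 6.61 TPM and Tapbp, tapasin, which bridges heavy chain and transporter, at 140 ± 2.19 TPM. Canx, calnexin, had 58.6 ± 3.00 TPM, Pdia3, the disulphide isomerase ERp57, 54.7 ± 3.87 TPM, and the tapasin relative Tapbpl 16.9 ± 1.13 TPM. Of the proteasome genes, the activator subunits Psme2 and Psme1 had 153 ± 10.2 and 117 ± 9.39 TPM. The immunoproteasome subunits Psmb8, Psmb10 and Psmb9 had 96.4 ± 3.40, 55.7 ± 4.64 and 53.3 ± 9.59 TPM. The aminopeptidases Lnpep and Erap1 and the peptidase Tpp2 had 71.7 ± 3.68, 50.1 ± 4.10 and 37.0 ± 2.20 TPM.

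Nlrc5 acts with a complex of RFX and NF-Y factors on DNA. The subunits Rfxap and Rfx5 were at 14.0 ± 1.88 and 13.3 ± 1.22 TPM, Rfxank ranged from 9.40 to 14.1 TPM, and Nfyc, Nfya and Nfyb were at 27.7 ± 3.28, 22.9 ± 1.53 and 14.5 ± 1.41 TPM, each below Nlrc5. Irf1, which binds interferon response elements, had 160 ± 11.6 TPM. Nfkb1, Irf2, Rela, Creb1, Irf9, Atf1 and Stat2 had 22.6 to 63.7 TPM. Of the 17 regulators 2 were called variable, Ciita and Irf8, beside 1.40% of all genes tested. Ciita, the class II counterpart of Nlrc5, had 0.26, 0.30, 0.35 and 2.92 TPM (adjusted p = 2.15e-14 by edgeR's goodness-of-fit test), and Irf8, a factor of B and myeloid cells, 4.64, 4.87, 4.26 and 9.07 TPM (adjusted p = 0.00749 by the same edgeR test).

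Both were high in library 4, where B cell and class II markers were high, and the part of those cells was not tested. Without library 4 neither was called (adjusted p = 1.00 for both in edgeR's test), and without library 3 Irf8 was not called (adjusted p = 0.0955 in edgeR's test). Of 20 interferon target genes, 0 were called by the same test, beside 1.40% of all genes tested. The highest were Gbp3, Gbp4 and Zbp1 at 54.0 ± 3.83, 51.7 ± 4.12 and 29.7 ± 2.00 TPM.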

How the data were processed

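Total RNA of splenic T cells was sequenced with spike-ins in 4 libraries of 1 group, and values refer to mm10 and GENCODE M21 per the text deposited with each library. The quantification software is not given in the sources used here, per the labels. The authors' first quantification has the column layout of RSEM: expected counts, which are estimates and not normalized, TPM, the percent of each transcript in its gene and, per the file headers, a posterior SD of each count, treated as a score. The second, a deposited transcript table with the layout of kallisto, gives estimated counts and TPM, which were summed per gene here. Each library was quantified alone. Long and short transcript models compete for the same reads, and TPM divides by effective length, so the split between models moves the gene's TPM. Identifiers that name no mouse gene took at most 8.75e-05% of counts and stayed out, as did 97 spike-ins (0.299% to 0.347% of counts). There were 86 genes without a second value, left out of that comparison.

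Expected counts were rounded and tested with edgeR 4.0.16 in R 4.3.3 (intercept only, filterByExpr, TMM, trended dispersion, goodness of fit, Benjamini-Hochberg over all genes kept, threshold 0.05), since 1 group allows no contrast. Ratios used a pseudocount of 1 TPM and were tested over the 4 libraries by exact sign flips, two-sided. Alternatives were DESeq2 1.42.0, other scalings, filters and pseudocounts, the second quantification and leaving out each library. Coding sequences were aligned with MAFFT 7.526. A floor of 3 counts covers counting error only. Named were all members, the loading and regulator lists (1 regulator is not reported here), other class I genes of at least 1 TPM, the top 3 of the interferon list and any listed gene called variable. Members and lists were chosen with earlier results of these data known.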

Additional observations from a re-analysis of the deposited data

Results flagged for a closer look

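Of 95 sets of 4 library values checked for a value far from the other 3, 8 had one, and chance gives about 1 in 20. None was a member's level or a ratio between members. In library 4, Ciita stood at 2.92 TPM against 0.26 to 0.35 TPM, Irf8 at 9.07 TPM against 4.26 to 4.87 TPM, the summed B cell markers at 159 TPM against 14.6 to 19.9 TPM, the summed class II genes at 292 TPM against 53.8 to 73.4 TPM and the summed erythroid genes at 633 TPM against 15.3 to 62.5 TPM. In library 2, the summed neutrophil markers stood at 29.7 TPM against 9.45 to 10.5 TPM, and Mr1, which presents vitamin metabolites, at 5.30 TPM against 5.82 to 5.92 TPM. In library 3, Atf1 stood at 30.7 TPM against 28.9 to 29.1 TPM.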

How the results depend on the processing

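No paired analysis was possible because there is 1 group. Over coding transcripts alone, chosen after seeing the data, the log2 ratio of H2-K1 to H2-D1 turned from 0.97 to -0.39, and over coding transcripts of the second quantification that of H2-Q7 to H2-Q6 turned from 1.48 to -0.29. The other 4 ratios kept their sign under every alternative run, although Tap1 to Tap2 was positive in 3 of 4 libraries in the second quantification. Their size was less steady over coding transcripts of the first. B2m to the classical sum went from 0.313- to 0.832-fold and classical to non-classical from 4.36- to 2.39-fold. Tap1 to Tap2 went from 1.15- to 6.45-fold and H2-T23 to H2-T22 from 1.54- to 1.47-fold. Leaving out each library in turn, the ratio of H2-K1 to H2-D1 was 0.96 to 0.97. The number of genes called variable was 183 of 13118 tested (1.40%), with 279 of 23727 without the filter (1.18%) and 353 of 13118 with a common dispersion (2.69%). Without 1 library it was 116 to 146, or 0.873% to 1.10% (116 without library 4, 118 without library 1). Of the 10 genes, 0 were called under any of these. The summed level of the 10 genes was 4418 TPM, 5613 TPM in the second quantification, 12498 TPM rescaled to protein-coding genes and 4336 to 4481 TPM without 1 library. Genes past the fold rule between quantifications numbered 1676, and 3138 at 1.5-fold, which includes 1 of the 10 genes, H2-Q6. The median coding-transcript share of the 10 genes was 69.4%, and 76.6% in the second quantification. The cause was not tested, except for changes by construction. A lower fold rule and fewer or more genes tested change counts in this way. Rescaling to protein-coding genes raises every TPM in this way, since these genes held 35.4% of TPM on average. The depth of 14584388 to 17335895 counts leaves a counting SD of at most 2.42% of the count in any of the 10 genes.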
